A study of Mus musculus with 8 samples.

Results

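Matrix metalloproteinases (MMPs) are zinc-dependent endopeptidases that cut collagens, elastin, gelatin and other matrix proteins, and also trim chemokines, receptors and growth factor precursors. They are made as inactive proenzymes, most of them secreted and a few anchored in the membrane, and tissue inhibitors of metalloproteinases (TIMPs) block the active enzymes by binding the catalytic site. In tumors, macrophages are a known source of several MMPs. The genes described here are 7 MMP genes and 3 TIMP genes, which make up 10 of the 18635 genes in the deposited table. They were picked by gene symbol as the family of *Mmp9*, which was lower in the *Phgdh* fl/fl *Cx3cr1*-Cre samples of these same data. The difference between genotypes was therefore used to choose them, and it is given below as a description, without a p-value for any of the 10 genes.

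The samples were bone marrow-derived macrophages (BMDMs) from mice of a C57BL/6 background aged 6 to 8 weeks, differentiated with L929-conditioned medium and then kept for 24 h in medium conditioned by AE17 mouse mesothelioma cells (AE17-TCM), which makes them tumor-educated macrophages (TEMs). All samples carried the floxed *Phgdh* alleles, 4 samples without Cre (*Phgdh* fl/fl) and 4 with 1 *Cx3cr1* allele carrying Cre, which is expressed from the promoter of that gene (*Phgdh* fl/fl *Cx3cr1*-Cre), from littermate mice. The genotypes differ in the Cre, in that *Cx3cr1* allele and in *Phgdh*, so that effects of these cannot be told apart. RNA was extracted from all cells of a well, so that fewer producing cells and less RNA per cell cannot be told apart. The study describes the samples as biologically independent, and the labels number them as replicates without tying them to animals, so that p-values measure the spread between these samples. Macrophages kept without AE17-TCM were not analysed here.

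Values are normalized counts, that is, reads of a gene divided by a size factor of the sample, and they rest on 38219563 to 47027420 reads counted on genes per sample. For the targeted gene *Phgdh*, the means were 117 ± 9.82 normalized counts without Cre and 27.1 ± 9.39 with it (SD, n = 4 each), and the Cre did not bring the value to 0 in any sample. All 8 macrophage markers looked up, among them *Adgre1* and *Csf1r*, were measured, with a summed value of 974279 to 1076549 per sample, most of it from *Lyz2*. Of these 8, 4 were lower with the Cre and 0 higher (limma), namely *Cx3cr1* (log2 fold change -0.70, 1 allele of which carries the Cre), *Fcgr1* (-0.40), *Itgam* (-0.19) and *Adgre1* (-0.084), and their part in the results below was not tested. Of the 11 neutrophil markers, 2 were analysed, with summed values of 675 to 789 without Cre and 946 to 1032 with it. For other cells, summed values were 27.0 to 56.4 for 5 of 8 fibroblast markers, 1.03 to 5.08 for 1 of 7 mesothelial markers, 43.7 to 91.5 for 4 of 6 dendritic cell markers, 17.2 to 37.9 for 1 of 4 T cell markers and 131 to 253 for 2 of 5 B cell markers. Of the B cell markers, *Cd79b* was lower with the Cre (adjusted p = 2.93e-05, limma). The 4 Y-linked genes looked up were counted in every sample, and *Xist* lay between 0 and 8.59 normalized counts in *Phgdh* fl/fl TEMs and between 22.4 and 43.6 with the Cre.

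Of the 10 genes, 9 reached a mean of 10 normalized counts and entered the comparison of genotypes across all genes (limma on log2(normalized count + 1)). A gene is called below when its p adjusted over all tested genes was under 0.05. Log2 fold changes are Cre over no Cre, on that scale. For genes with few reads they depend on the method. *Mmp2* stood at 0.80 here, at 0.89 with 0.1 added in place of 1, at 0.73 with edgeR and at 0.74 with DESeq2. In the members, 5 were called higher (*Mmp8*, *Mmp12*, *Mmp13*, *Mmp14* and *Timp2*) and 1 was called lower (*Mmp9*). Over all 13629 tested genes, 41.0% were called, 20.8% higher and 20.3% lower. In 6 of the 9 genes the genotypes were fully apart over their samples, 5 of them higher with the Cre and 1 lower. Over all tested genes this held for 36.7%, with 18.4% higher and 18.2% lower. The contrast chose the family, so that nothing is read from these shares. The median log2 fold change was 0.14 over the 9 genes and -0.0018 over all tested genes. The 9 genes, and the 5 fully apart and higher, include *Mmp2*, whose mean passed the filter only through the samples with the Cre.

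**Figure D1:**
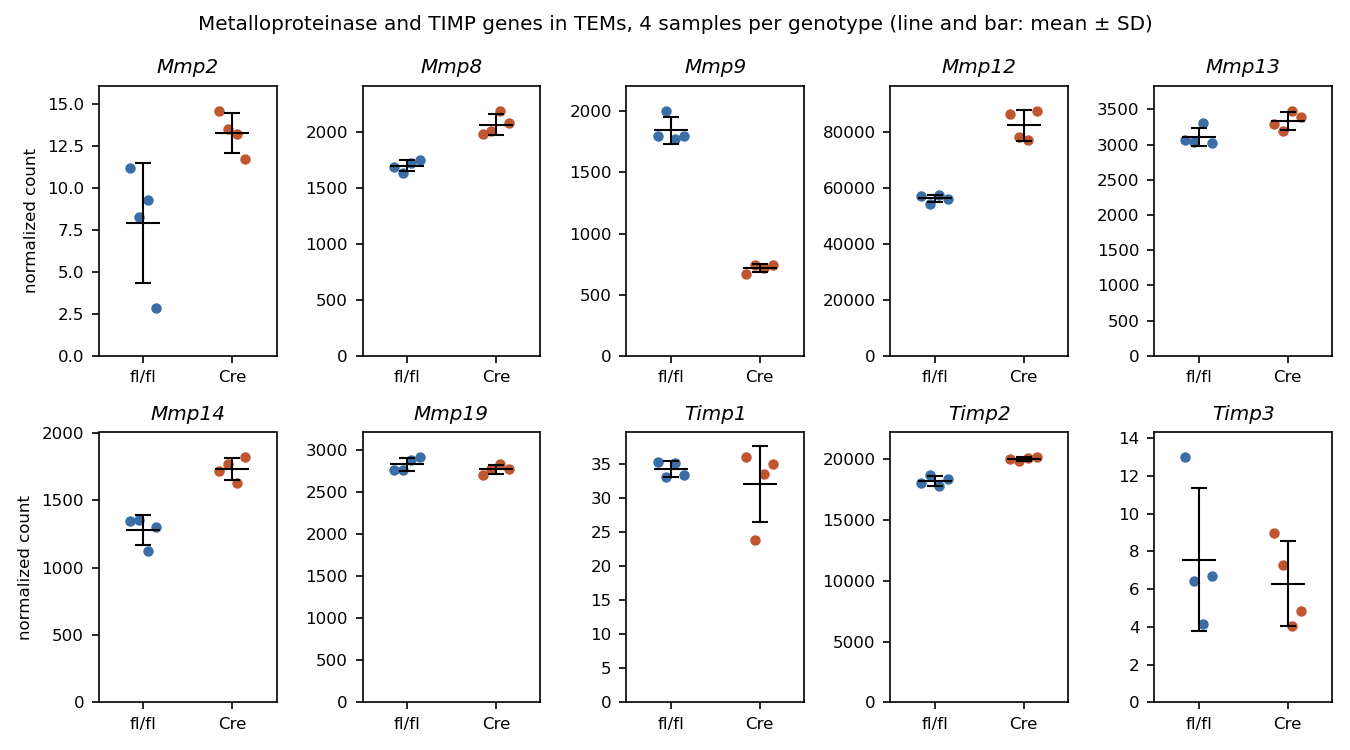
Normalized count of each of the 10 genes in each sample (points; vertical axis from 0), with *Phgdh* fl/fl TEMs on the left of each panel, *Phgdh* fl/fl *Cx3cr1*-Cre TEMs on the right, and the mean ± SD as a line and bar (n = 4 each). *Mmp9* lies at 669 to 746 with the Cre against 1775 to 2006 without it, whereas *Mmp12*, *Mmp14*, *Mmp8* and *Timp2* lie higher with the Cre in all samples.

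*Mmp9* (ENSMUSG00000017737) encodes gelatinase B, which cuts denatured collagen and the type IV collagen of basement membranes. Its place in mm10 is chromosome 2, from 164940780 to 164955850 (plus strand). Its normalized counts were 1799, 2006, 1775 and 1796 in *Phgdh* fl/fl TEMs and 669, 746, 719 and 741 with the Cre. The groups were far apart, with 1775 as the lowest value without Cre and 746 as the highest with it, and replicate 2 of the *Phgdh* fl/fl TEMs stood above the other 3. The mean with the Cre was 0.390 of that without it (0.385 to 0.402 when any 1 sample was dropped), and the log2 fold change was -1.36 (standard error 0.045). A change of at least 1 on the log2 scale, in either direction, was seen in 1.28% of all tested genes.

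*Mmp2*, the gene of the other gelatinase, gelatinase A, which is best known from stromal cells, had few reads. It lies on chromosome 8 from 92827291 to 92853420, and 3 to 13 reads were counted per sample. Normalized counts were 11.2, 8.28, 9.30 and 2.86 without Cre and 14.6, 13.5, 13.2 and 11.7 with it. The samples with the Cre were all higher, by a small margin, and the mean passed the filter only through them. The gene was not called (log2 fold change 0.80, standard error 0.38), and the ratio of the means was 1.68, or 1.38 to 1.94 when any 1 sample was dropped. Without replicate 4 of the *Phgdh* fl/fl TEMs, the lowest sample, the log2 fold change was 0.44, and without replicate 1 it was 0.99 and called.

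*Mmp12* (ENSMUSG00000049723), the macrophage metalloelastase, was the most abundant of the MMP genes and lies on chromosome 9 from 7344381 to 7369499. Its normalized counts were 57291, 54393, 57385 and 56015 in *Phgdh* fl/fl TEMs, and 86380, 78134, 77200 and 87696 in *Phgdh* fl/fl *Cx3cr1*-Cre TEMs. All samples with the Cre were higher, and they were also spread more widely (SD 5450 against 1399). The ratio of the means was 1.46, or 1.43 to 1.49 when any 1 sample was dropped. The log2 fold change was 0.55 (standard error 0.034), and 7.23% of all tested genes moved by at least 0.5 on that scale in either direction. Its exons share 157 bases with those of *Mmp1b* on the other strand, and *Mmp1b* was not analysed here.

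The collagenase genes differed less. *Mmp8* (neutrophil collagenase; chromosome 9, 7558456 to 7568485) had 1688, 1631, 1724 and 1749 normalized counts in *Phgdh* fl/fl TEMs and 1980, 2009, 2191 and 2084 with the Cre. The groups did not overlap, and the log2 fold change was 0.28 (standard error 0.036). *Mmp13* (collagenase 3; chromosome 9, 7272514 to 7283331) had 3067, 3040, 3304 and 3028 without Cre and 3287, 3195, 3484 and 3393 with it. Here the groups overlapped through replicate 3 of the *Phgdh* fl/fl TEMs, and the log2 fold change was 0.10 (standard error 0.033). Its call was lost in 5 of the alternative settings.

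The products of *Mmp8* and *Mmp9* are stored in neutrophil granules, and of the 11 neutrophil markers looked up, 2 were analysed here. Both were higher with the Cre. *Lcn2*, whose product binds MMP9, went from 217 ± 16.5 to 386 ± 13.9 normalized counts (SD, n = 4 each; log2 fold change 0.83, standard error 0.071, limma adjusted p = 6.82e-09). *S100a8* went from 527 ± 47.9 to 617 ± 27.3 (log2 fold change 0.23, limma adjusted p = 0.0044). The defining neutrophil genes *Ly6g*, *Mpo* and *Elane* were not analysed here, and the part of such cells in the values of *Mmp8* and *Mmp9* was not tested. *Mmp8* was higher with the Cre and *Mmp9* lower, and the directions of 2 markers do not tell which cells these reads came from.

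*Mmp14* encodes MT1-MMP, a membrane-anchored collagenase that also activates the proenzyme of MMP2. It lies on chromosome 14 from 54431612 to 54445364. Its normalized counts were 1343, 1355, 1119 and 1299 in *Phgdh* fl/fl TEMs and 1719, 1767, 1623 and 1819 in *Phgdh* fl/fl *Cx3cr1*-Cre TEMs. Each sample with the Cre lay above each without it, and the ratio of the means was 1.35 (1.30 to 1.38 when any 1 sample was dropped; log2 fold change 0.44, standard error 0.050).

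*Mmp19*, a secreted MMP of broad substrate range, showed little difference. Normalized counts were 2764, 2758, 2879 and 2918 without Cre and 2706, 2772, 2841 and 2774 with it. The groups overlapped and the gene was not called (log2 fold change -0.029, standard error 0.029). It lies on chromosome 10 from 128790910 to 128800824, where 789 bases of its exons are also exons of *Tmem198b* on the other strand. The library kit marks strand, but the strand setting of the counting is not given in the sources used here, so that reads in such shared stretches could belong to either gene.

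Among the inhibitors, *Timp2*, whose product also takes part in the activation of pro-MMP2 by MMP14, was by far the most abundant. The gene is on chromosome 11, from 118301069 to 118355740 (minus strand). Normalized counts were 18019, 18670, 17781 and 18400 in *Phgdh* fl/fl TEMs and 20011, 19832, 20088 and 20185 with the Cre. The groups did not overlap, but the difference was small, with means of 18217 ± 395 and 20029 ± 149 (SD, n = 4 each; log2 fold change 0.14, standard error 0.021).

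*Timp1*, the inducible inhibitor that binds pro-MMP9, had 35.3, 33.1, 35.1 and 33.4 normalized counts without Cre and 36.0, 23.9, 33.5 and 35.0 with it. The groups overlapped, replicate 2 with the Cre was the lowest of the 8 samples, and the gene was not called (log2 fold change -0.11, standard error 0.19, and 0.025 without that replicate). It lies on chromosome X from 20870166 to 20874735, within *Syn1* on the other strand, without shared exon bases. *Timp3*, whose product is bound to the matrix (chromosome 10, 86300372 to 86349506), had only 4 to 14 reads per sample. Its normalized counts were 13.0, 6.44, 4.13 and 6.68 without Cre and 9.0, 7.27, 4.07 and 4.86 with it, which overlap, and it stayed below the filter of the comparison. Of its exon bases, 1733 are shared with *Syn3* on the other strand.

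**Figure D2:**
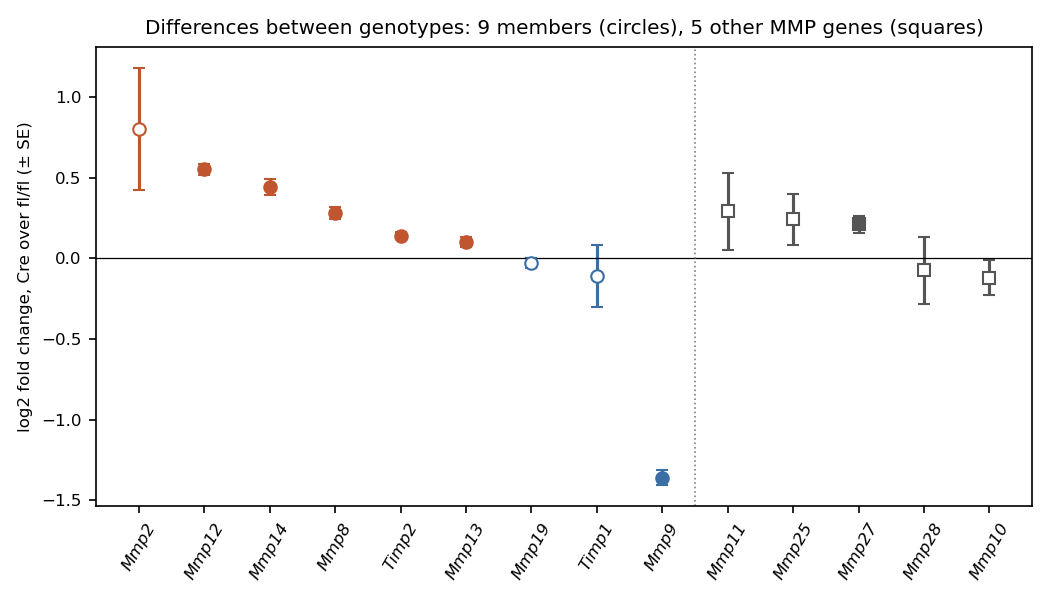
Log2 fold change of *Phgdh* fl/fl *Cx3cr1*-Cre over *Phgdh* fl/fl TEMs with its standard error for the 9 tested members (circles) and 5 other MMP genes (squares), filled where the adjusted p was under 0.05. *Mmp9* stands at -1.36, while 6 of the 9 members lie above 0, between 0.10 and 0.80. The highest of them, *Mmp2*, passed the filter only through the samples with the Cre.

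To compare levels between genes, the recovered reads were divided by the exon length of each gene and scaled by the reads counted in the sample (FPKM, fragments per kilobase of exon at a common depth). In *Phgdh* fl/fl TEMs the order by mean FPKM was *Mmp12* (179 ± 4.38), *Timp2* (108 ± 2.42), *Mmp13* (26.8 ± 1.09), *Mmp19* (18.5 ± 0.503), *Mmp8* (16.2 ± 0.467), *Mmp9* (12 ± 0.718), *Mmp14* (4.95 ± 0.429), *Timp1* (0.890 ± 0.0298), *Mmp2* (0.0541 ± 0.0244) and *Timp3* (0.0215 ± 0.0108; SD, n = 4 each). Every neighboring pair in this order was separated in range over the 4 samples except *Mmp2* and *Timp3*, whose ranges overlapped. With the Cre, the order changed in 2 places. *Mmp8* (19.9 ± 0.924) stood above *Mmp19* (18.3 ± 0.398), and *Mmp14* (6.78 ± 0.323) stood above *Mmp9* (4.74 ± 0.239), with ranges apart in both cases. Among the 18629 genes ranked by FPKM, *Mmp12* was at rank 197 without Cre and 110 with it, whereas *Mmp9* was at rank 3574 and 6587.

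**Figure D3:**
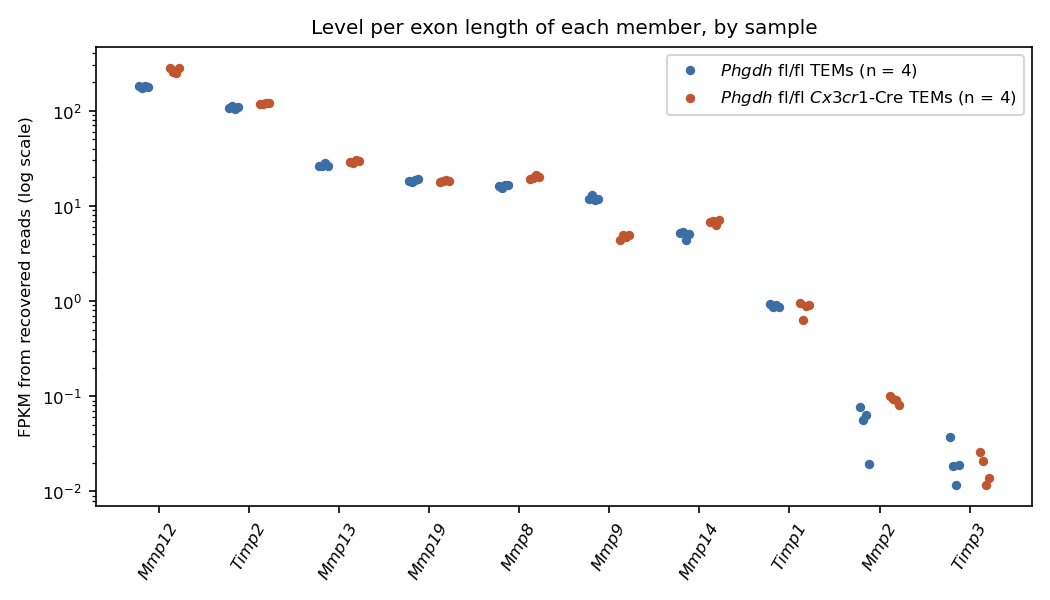
FPKM of each of the 10 genes on a log scale, computed from recovered reads and exon length, with 1 point per sample. *Mmp12* and *Timp2* lie above 100 in every sample, *Mmp2* and *Timp3* lie near or below 0.1, and the columns of *Mmp9* and *Mmp14* trade places between the genotypes.

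The 7 MMP genes summed to 258 ± 4.60 FPKM in *Phgdh* fl/fl TEMs and to 344 ± 16.4 FPKM with the Cre (SD, n = 4 each). *Mmp12* carried 69.6% ± 0.518 of that sum without Cre and 77.0% ± 1.38 with it. Without *Mmp12* the sums were 78.5 ± 0.767 and 78.9 ± 2.23 FPKM, which differ by less than the spread between samples. The share of *Mmp9* was 4.67% ± 0.360 without Cre and 1.38% ± 0.110 with it, and its FPKM was 6.71% ± 0.561 of that of *Mmp12* without Cre and 1.79% ± 0.169 with it. *Timp2* made up 99.2% ± 0.0477 of the summed FPKM of the TIMP genes without Cre and 99.3% ± 0.116 with it. The summed MMP FPKM over the summed TIMP FPKM was 2.42, 2.26, 2.47 and 2.34 in the samples without Cre and 2.94, 2.76, 2.73 and 2.98 in those with it, which do not overlap. These are ratios of transcripts, not of protein or activity. They depend on the exon length used, which is 7237 bases for *Mmp12* since all annotated exons were joined.

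*Mmp13*, *Mmp12* and *Mmp8* lie in a cluster of MMP genes on chromosome 9, in which *Mmp10* and *Mmp27* were also counted. These 5 genes span 309 kb, and *Mmp12* lies 113 Mb from *Cx3cr1*, the site of the Cre on the same chromosome. To show how neighbors of the cluster differ in sequence at their starts, the windows of RefSeq (GRCm38.p6) from 250 bases before to 50 bases after the start are given for the 3 members, 5′ to 3′ on the plus strand, at chr9:7272264-7272563 for *Mmp13*, chr9:7344147-7344446 for *Mmp12* (of its 2 windows, the one nearest its annotated start) and chr9:7558179-7558478 for *Mmp8*. Capitals mark matches to TGANTCA, the AP-1 motif, or to TATAAA, the TATA box, on either strand.
Mmp13: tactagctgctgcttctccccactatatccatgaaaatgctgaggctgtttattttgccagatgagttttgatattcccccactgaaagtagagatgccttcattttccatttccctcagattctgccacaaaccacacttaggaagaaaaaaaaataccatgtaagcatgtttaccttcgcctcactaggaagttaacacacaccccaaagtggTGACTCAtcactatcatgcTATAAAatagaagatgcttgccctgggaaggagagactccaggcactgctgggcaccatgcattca
Mmp12: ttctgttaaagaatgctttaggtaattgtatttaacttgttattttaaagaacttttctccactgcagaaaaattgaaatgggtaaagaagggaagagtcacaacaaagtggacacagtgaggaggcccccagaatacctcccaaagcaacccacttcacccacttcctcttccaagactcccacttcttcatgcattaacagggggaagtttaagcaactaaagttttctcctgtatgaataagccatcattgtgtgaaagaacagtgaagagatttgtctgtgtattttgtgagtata
Mmp8: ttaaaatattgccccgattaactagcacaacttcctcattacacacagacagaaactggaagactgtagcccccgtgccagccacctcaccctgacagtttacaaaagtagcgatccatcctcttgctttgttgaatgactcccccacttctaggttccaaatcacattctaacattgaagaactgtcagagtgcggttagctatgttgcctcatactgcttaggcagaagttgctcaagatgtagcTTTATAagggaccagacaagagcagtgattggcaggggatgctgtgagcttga

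Of the 7 members with such a window, *Mmp13* alone held TGANTCA, which is found in 7.81% of all 32851 windows, and *Mmp13* and *Mmp8* held TATAAA (13.6% of all windows; the match in *Mmp8* is on the other strand). The other motif searched, GGGCGG (the GC box, 35.7% of all windows), was found in *Mmp14* and in the 3 TIMP genes, and in none of the 3 genes printed. No match in the windows of the members overlapped another. A match describes the letters only. *Mmp2*, *Mmp9* and *Mmp19* had no window in the table.

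Within the cluster, *Mmp27* rose, with 908 ± 78.7 normalized counts without Cre and 1050 ± 31.4 with it (SD, n = 4 each; log2 fold change 0.21, standard error 0.051, limma adjusted p = 0.0018), with the highest sample without Cre and the lowest with it both at 1019. *Mmp10* (stromelysin 2) had 116 ± 16.5 and 106 ± 2.99 normalized counts and was not called (log2 fold change -0.12, limma adjusted p = 0.417). Its value rested on replicate 3 of the *Phgdh* fl/fl TEMs, at 140 against 102 to 114 in the other 3, and was -0.029 without that sample and -0.18 without replicate 2. Genes of other families within 1 Mb of the start of *Mmp12* were looked up after the values of the members were seen. *Dync2h1* (log2 fold change 0.52), *Birc2* (0.23) and *Birc3* (0.23) were called higher, and *Dcun1d5* (-0.013) and *Tmem123* (-0.041) were not called. Over all tested genes, 20.8% were called higher and 20.3% lower. Whether the genes of this region change together was not tested.

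**Figure D4:**
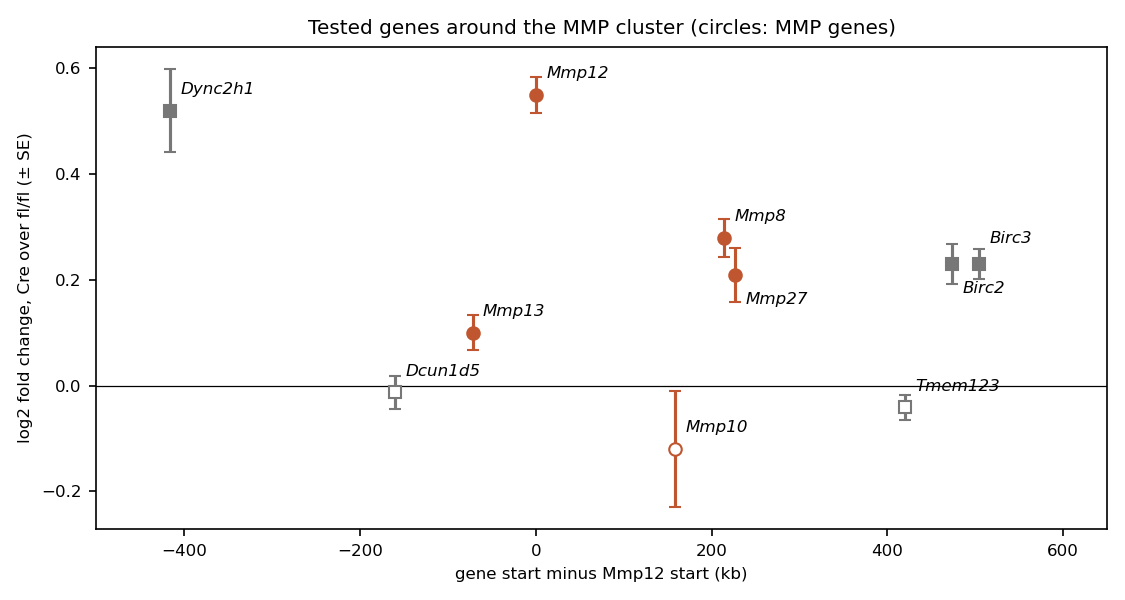
Log2 fold change with its standard error of the tested genes within 1 Mb of the start of *Mmp12*, against the distance of each gene's start from that of *Mmp12* in kb; circles are MMP genes, squares other genes, and filled symbols have an adjusted p under 0.05. *Mmp12* (0.55) and *Dync2h1* (0.52) stand highest, and *Mmp10* (-0.12, or -0.029 without replicate 3 of the *Phgdh* fl/fl TEMs) was not called.

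Of 17 other MMP and TIMP genes looked up, 9 were in the table and 5 passed the filter, of which *Mmp27* was called and was higher. *Mmp11* (24.5 ± 7.07 without Cre and 29.8 ± 6.14 with it), *Mmp25* (43.3 ± 4.93 and 51.2 ± 4.96) and *Mmp28* (33.0 ± 4.49 and 31.6 ± 7.06 normalized counts; SD, n = 4 each) had few reads and were not called. *Mmp15*, *Mmp17*, *Mmp23* and *Mmp24* lay below the filter.

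Genes that act with MMPs were looked up as 5 further lists, to be read against the 41.0% called among all tested genes. Plasminogen activation, which can start the activation of several pro-MMPs, was represented by a protease and its receptor. *Plau* (urokinase) fell from 3684 ± 78.6 to 2886 ± 66.5 normalized counts (log2 fold change -0.35, limma adjusted p = 2.01e-09). *Plaur*, its receptor, fell as well, from 2217 ± 18.9 to 1833 ± 56.0 (log2 fold change -0.27, limma adjusted p = 3.79e-07; SD, n = 4 each). In this list of activators and inhibitors, 10 of 22 genes were tested, 4 were lower and 3 higher, and the median log2 fold change was -0.28. *Serpine2* (-0.59) was called lower, and *Serpinb2* (0.69), *Plgrkt* (0.22) and *Furin* (0.071) were called higher. *Serpine2* and *Serpinb2* had at most 40.3 normalized counts in any sample, and their calls were lost in 4 and 8 of the alternative settings. The groups of *Furin* overlapped, with 5842 to 6042 normalized counts without Cre and 5975 to 6401 with it. Its call was lost in several alternative settings, among them quantile normalization and eBayes without trend. *Reck*, a membrane-bound MMP inhibitor, was not called (log2 fold change -0.32, limma adjusted p = 0.17).

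Of the genes for docking and clearance of MMPs, 14 of 16 were tested, with 7 lower and 5 higher (median log2 fold change -0.10). The highest was *Itgb3*, the β3 integrin chain, which rose, with 317 ± 35.2 normalized counts without Cre and 1036 ± 60.8 with it (SD, n = 4 each; log2 fold change 1.71, standard error 0.066, limma adjusted p = 4.72e-14). Its partner *Itgav* fell (-0.26, limma adjusted p = 4.13e-06). *Lcn2* (0.83) was the next highest, and *Sdc4* (-0.32) and *Cd151* (-0.21) were among the 3 lowest. *Cd44*, a surface receptor that binds MMP9, fell slightly (-0.15, limma adjusted p = 2.15e-05). *Lrp1*, the endocytic receptor that clears MMP9 and MMP13 complexes, was not called (71234 ± 5169 and 69499 ± 1910 normalized counts).

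The ADAM and ADAMTS genes are relatives of the MMPs, and many but not all of their products shed membrane proteins or cut proteoglycans. Of these genes, 12 of 29 were tested, with 4 lower, 3 higher and a median log2 fold change of 0.010. *Adam8*, a myeloid sheddase, had 125940 ± 2423 normalized counts without Cre and 91597 ± 1093 with it, and fell (SD, n = 4 each; log2 fold change -0.46, standard error 0.023, limma adjusted p = 1.44e-12). *Adam15* (-0.28) and *Adam9* (-0.11) were lower too, and *Adam23* (0.95) and *Adamts6* (0.32) were higher, each without overlap of the groups. *Adam17*, the sheddase of TNF, was not called (log2 fold change 0.028, limma adjusted p = 0.354).

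Of 25 transcription factors known to act on MMP genes, 23 were tested, with 11 lower, 3 higher and a median of -0.10. The AP-1 genes did not all move alike. *Fos* went down from 5358 ± 127 to 4134 ± 249 (normalized counts, mean ± SD, n = 4 each; log2 fold change -0.38, standard error 0.034, limma adjusted p = 1.67e-08). *Fosl1* fell from 104 ± 16.3 to 62.1 ± 8.37 (log2 fold change -0.73, limma adjusted p = 0.000313), and *Fosl2* (-0.22) and *Jun* (-0.11) were lower. *Jund* rose (0.14, limma adjusted p = 0.000495), and *Fosb* was not called. *Egr1* (-0.70) and *Tcf7l2* (-0.38) were the other 2 of the 3 lowest. The remaining genes called higher were *Runx2* (0.24) and *Nfkb1* (0.062), and the call of *Nfkb1* was lost in 9 of the alternative settings.

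Among 27 matrix genes whose products MMPs cut, 8 were tested, since most matrix genes had few reads in these macrophages. *Col18a1* fell (log2 fold change -0.32, limma adjusted p = 5.11e-09) and *Lamc1* rose (0.082, limma adjusted p = 0.0142), with a median of -0.074 over the 8. The groups of *Lamc1* overlapped, with 8416 to 9153 normalized counts without Cre and 9017 to 9370 with it. Its call was lost with eBayes without trend, and without replicate 3 of the *Phgdh* fl/fl TEMs or replicate 4 with the Cre. *Fn1* and *Spp1* (osteopontin, cut by several MMPs) were not called.

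**Figure D5:**
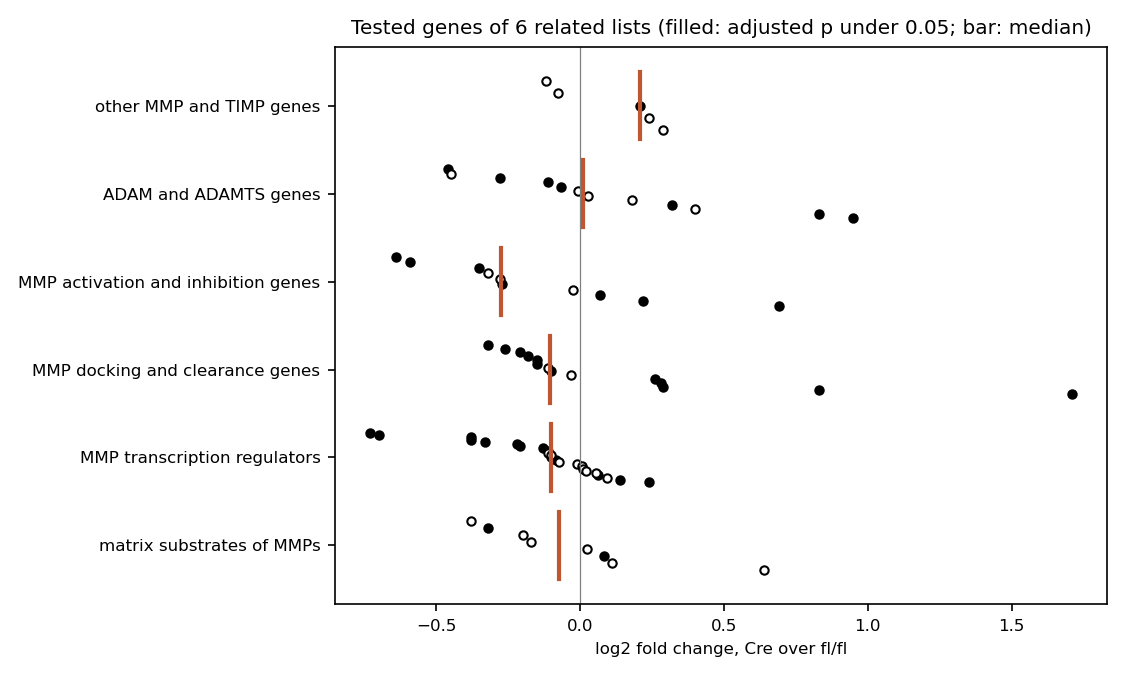
Log2 fold change of each tested gene in 6 lists of related genes (1 point per gene, filled where the adjusted p was under 0.05; the bar is the list's median). Medians lie between -0.28 for the genes of MMP activation and inhibition and 0.21 for the other MMP and TIMP genes, and *Itgb3* (1.71) is the point farthest to the right.

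The genes whose values over the 8 samples were most like those of *Mmp9* were found by the root mean square difference of log2(normalized count + 1), each gene taken relative to its mean in *Phgdh* fl/fl TEMs, over the 11259 other genes that reached a mean of 50 normalized counts. The 5 nearest were *Folr2* (root mean square difference 0.104), *Btbd11* (0.136), *Gm22655* (0.138), *Dmpk* (0.180) and *Urah* (0.222), against a median of 0.961 over all genes compared. The measure is set mainly by the difference between genotypes, and these genes had log2 fold changes of -1.28, -1.45, -1.22, -1.52 and -1.08.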

How the data were processed

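RNA from 4 *Phgdh* fl/fl and 4 *Phgdh* fl/fl *Cx3cr1*-Cre samples was grouped by the titles of the submitters. The authors mapped single-end reads to mm10 with TopHat2, counted them per gene with HTSeq 0.6 and compared genotypes with DESeq2 (submitters' processing notes and methods). The deposited sample values are a signal per gene and sample: read counts divided by a size factor, without division by length. Whole reads were recovered for 100% of 144353 values above 0 (within 0.01 of a read). The deposited mean per gene is a signal too. The authors' log2 fold change with its error, Wald score and p-value columns were deposited but not used.

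The test between genotypes used limma 3.58.1 (R 4.3.3; eBayes with trend, two-sided, no covariate) on log2(normalized count + 1) for 13629 genes with a mean of at least 10, with Benjamini-Hochberg adjustment. Lengths and positions came from GENCODE M21 (mm10; 18629 of 18635 genes found). Alternatives were quantile normalization, a pseudocount of 0.1, a filter at a mean of 1 FPKM or none, scaling to total reads, eBayes without trend, a replicate block, each sample left out, edgeR 4.0.16 and DESeq2 1.42.0 on recovered reads. The fits were also run on simulated counts with the same dispersion for every gene. That setting differs from these data, so that it does not check the calls made here. The members and lists were chosen with earlier results of these data known. Genes named are the members, *Phgdh*, the 5 most like *Mmp9*, other MMP genes past the filter, and in each list the 3 highest and 3 lowest called genes without overlap; further names (such as *Cd44*, *Plaur*, *Fos*, *Adam17*, *S100a8* and the neighbors of *Mmp12*) were added after their values were seen. Some genes that the rule names are not reported here. Protein features were not analysed here.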

Additional observations from a re-analysis of the deposited data

Results flagged for a closer look

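In groups of 4 samples, the highest or lowest sample was compared with the others by its gap over the range of the group (Dixon's test). Of 88 groups checked, 3 held a sample that stood apart by this test, where chance gives about 1 in 20 groups. They were *Mmp9* in replicate 2 of the *Phgdh* fl/fl TEMs (2006 normalized counts), *Mmp13* in replicate 3 of the *Phgdh* fl/fl TEMs (3304) and *Btbd11* in replicate 2 of the *Phgdh* fl/fl TEMs (172).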

How the results depend on the processing

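The number of members called was 5 to 7 when any 1 sample was dropped and 5 to 6 under the other alternatives. For all genes these ranges were 4966 to 5917 and 4930 to 5608. On recovered reads, edgeR called 5608 genes and DESeq2 5066, against 5594 with limma. For 42 genes named by the rule above, 702 values under the alternatives were compared with the main ones. Other genes named in the text, such as *Furin*, *Lamc1*, *Plaur*, *Cd44* and *Fos*, are not in this tally. Of the 702 values, 672 kept their direction and their side of the threshold and 2 changed sign. These 2 were *Timp1* without replicate 2 with the Cre (0.025; -0.17 to 0.025 over the dropped samples) and *Mmp28* without replicate 3 with the Cre (0.075; -0.19 to 0.075). The call of *Mmp13* was lost with quantile normalization, with eBayes without trend, and without replicate 2 or 4 of the *Phgdh* fl/fl TEMs or replicate 3 with the Cre, and *Mmp2* was called without replicate 1 of the *Phgdh* fl/fl TEMs (0.99) and stood at 0.44 without replicate 4. The ADAM and ADAMTS genes called were 4 with the filter at a mean of 1 FPKM, which tested 6 of them. The activation and inhibition genes called were 4 to 7 when any 1 sample was dropped, with 4 without replicate 3 of either genotype. The matrix genes called were 1 with eBayes without trend, and 1 to 3 when any 1 sample was dropped, with 1 without replicate 3 of the *Phgdh* fl/fl TEMs or replicate 4 with the Cre. The cause was not tested. Replicate numbers are shared by the genotypes. Deviations of same-numbered samples correlated at 0.0628, 0.0977, 0.126 and 0.0776, and those of differently numbered samples at -0.124 to 0.135. These values do not settle whether the numbers are pairs. The labels do not tie the numbers to animals, and they were not taken as pairs. With the replicate block, 5597 genes and 6 members were called, the call of *Serpinb2* was lost, and not every sample correlated best with its own number. *Mmp2* and *Timp3* are limited by their few reads.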
